A study of Mus musculus with 2 samples.

Results

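The collagen chain genes described here are the 32 genes, of 17775 in the deposited table, whose symbols have the form Col, number, a, number. They were examined in single cells of MC38 tumours, grown from a mouse colon carcinoma line implanted in C57BL/6 mice. The DFMO group received difluoromethylornithine, which blocks ornithine decarboxylase, the putrescine-making enzyme, and the water group received water. Both were given by gavage from day 7 after implantation for 14 days, once daily by the design text and more often by the sample labels. In both groups the tumours were digested and passed through a Ficoll density step meant to obtain immune cells, and the cells of 4 mice were pooled into 1 single-cell library made from 5' ends. Because each group is 1 library, there is no replicate check: no p-value was computed, and every interval given is a 95% interval of counting error only.

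Collagens are secreted matrix proteins built from alpha chains that wind into a triple helix, and each chain has its own gene. Types I, III and V form the fibrils of connective tissue, type VI forms beaded filaments around cells, and type IV forms the network of basement membranes. Further chains sit on fibril surfaces (types IX, XII, XIV and XVI), in the plasma membrane (types XIII, XVII and XXIII) or in anchoring fibrils below epithelia (type VII). In tumours, fibroblasts are the usual source of fibrillar collagens, and endothelium and epithelium make basement membrane chains.

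Promoter stretches of 4 genes are shown because these genes carry the results: Col3a1 was the most abundant chain, Col6a1 and Col6a2 are neighbouring genes whose levels followed each other, and Col1a2 had most of its molecules in a few cells. RefSeq promoter windows (GRCm38.p6, the assembly known as mm10) were found for 26 of the 32 members. The bases run 5′ to 3′ on the gene's strand, with matches to TATAAA and GGGCGG (or CCGCCC, its reverse complement) in capitals. CCAAT was also searched on both strands and was in none of the 4 stretches. The Col3a1 stretch is chr1:45311288-45311537 on the plus strand, the 250 bases before the start. The Col6a1 stretch is chr10:76726169-76726294 and the Col6a2 stretch is chr10:76623631-76623880, both on the minus strand. The Col1a2 stretch is chr6:4505370-4505492 on the plus strand, and it lies inside the gene as GENCODE annotates it, between exons. Bases of annotated exons were left out of the Col1a2 and Col6a1 windows, which leaves 123 and 126 bases.
Col3a1: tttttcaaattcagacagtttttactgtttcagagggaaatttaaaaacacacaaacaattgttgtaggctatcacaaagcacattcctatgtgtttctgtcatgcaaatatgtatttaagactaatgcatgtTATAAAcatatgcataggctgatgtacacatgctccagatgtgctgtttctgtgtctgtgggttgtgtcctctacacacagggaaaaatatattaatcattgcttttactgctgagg
Col6a1: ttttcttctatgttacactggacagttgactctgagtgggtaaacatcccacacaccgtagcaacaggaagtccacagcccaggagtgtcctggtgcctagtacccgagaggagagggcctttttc
Col6a2: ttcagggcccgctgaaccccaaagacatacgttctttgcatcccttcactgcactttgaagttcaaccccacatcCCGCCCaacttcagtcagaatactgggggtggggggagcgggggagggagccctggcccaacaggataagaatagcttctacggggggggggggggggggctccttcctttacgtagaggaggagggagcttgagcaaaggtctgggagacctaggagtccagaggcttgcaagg
Col1a2: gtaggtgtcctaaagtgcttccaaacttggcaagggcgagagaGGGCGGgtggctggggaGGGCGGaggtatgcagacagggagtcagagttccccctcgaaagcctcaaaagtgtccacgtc
The Col3a1 stretch held TATAAA once, 117 to 112 bases before the start, a motif present in 12.4% of 32851 mouse promoter windows of that length. Col6a2 held GGGCGG once on the opposite strand (32.7% of windows of its length) and Col1a2 held it at 2 places (13.3% of windows of its length). The Col6a1 stretch held none of the 3 motifs, so the neighbours Col6a1 and Col6a2 had no match in common. These are matches of letters in short windows and show no binding.

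The filters left 4421 DFMO and 6150 water cells, whose median depth was 2208 and 6334.5 UMIs (unique molecular identifiers, 1 for each captured RNA molecule). The cell barcodes of 37 cells occurred in both libraries. Although the label calls them immune cells, 108 DFMO cells (2.44%) and 872 water cells (14.2%) formed a matrix-rich cluster, and 578 DFMO cells (13.1%) and 2038 water cells (33.1%) lay in 4 other clusters low in Ptprc, the leukocyte gene for CD45. The matrix-rich cluster had 19 of 28 listed mesenchymal and Mfap4-associated markers at least 2-fold above the other cells, with leukocyte markers at 65.9 and 78.8 CPM (UMIs per 1000000 UMIs of the same cells), against 12413 and 10569 CPM in immune cells. It was divided into Mfap4-higher cells (38 in DFMO and 474 in water) and Mfap4-lower cells (70 in DFMO and 398 in water). Mfap4, the gene of a microfibril protein, was detected in 2 of the 38 Mfap4-higher DFMO cells and 79 of the 474 Mfap4-higher water cells, so in DFMO this name rests mostly on water cells of the same subclusters. The other Ptprc-low cells comprise a dividing cluster, a hypoxic cluster, a cluster led by Wfdc18, Lcn2 and Acpp and a cluster led by Mcpt2 and Mcpt4. They are the cells proposed as tumour-like, but over both libraries 0 of the 13 measured colon carcinoma and epithelial markers was both 2-fold higher and at 20 CPM or more in any of the 4 clusters. These markers summed to 7.2 CPM in DFMO against 34.6 CPM in water, with the keratin genes Krt18 and Krt19, the cadherin gene Cdh1 and 4 others at 0 in DFMO and Vil1 alone at 0 in water. In the Acpp-led cluster of water they summed to 98.7 CPM, with 212 UMIs of Krt18 in 8 of 637 cells, 135 UMIs of Epcam in 5 and 101 UMIs of Krt8 in 7, so few water cells carried the UMIs of these 3 genes. The keratin gene Krt14 was among the leading genes of that cluster. At a clustering resolution of 2.0 an epithelial cluster of 6 cells formed. With collagens among the variable genes, a cluster of 323 cells with Ptprc at 0.96 CPM had 4 of these markers raised and was classed epithelial. In the clustering used here no cluster was classed epithelial, and the set is called by its low Ptprc and not by a cell type. Y-linked genes summed to 1.2 and 1.8 CPM in matrix-rich cells of DFMO and water, to 1.5 and 0.7 CPM in other Ptprc-low cells and to 194.5 and 104.8 CPM in immune cells. Whether the matrix-rich cells belong to the host or to the implanted line was not tested.

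The kept cells held 325195 collagen UMIs, which is 0.266% of all UMIs in DFMO and 0.450% in water. Of the 32 members, 18 had at least 100 UMIs and 14 had fewer. Col3a1, the chain of type III fibrils, alone made up 178662 UMIs. It was followed by Col6a1 with 41038, Col6a2 with 29065, Col5a1 with 16486, Col16a1 with 14846 and Col6a3 with 11881. Col5a2, Col4a1, Col1a1, Col5a3, Col4a2, Col8a1 and Col7a1 had between 2344 and 7167 UMIs. Col1a2 with 474, Col27a1, Col18a1, Col12a1 and Col9a3 with 142 were the least abundant of the 18. The 14 others were Col11a2, Col15a1, Col14a1, Col23a1, Col28a1, Col13a1, Col8a2, Col20a1, Col6a4, Col9a1, Col17a1, Col4a5, Col9a2 and Col22a1, with 3 to 68 UMIs each. Every UMI is counted at the 5' end of a molecule, so chains were compared as UMIs without scaling by length.

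The matrix-rich cells were the richest in collagen in both libraries, and the other Ptprc-low cells also carried it. Collagen chains summed to 13198 CPM in DFMO against 14049 CPM in water in matrix-rich cells, and to 3762 and 3400 CPM in other Ptprc-low cells. In immune cells they summed to 21.7 and 87.2 CPM. Col3a1 was the leading chain in both Ptprc-low sets, with 62.5% of collagen UMIs in DFMO and 62.4% in water in matrix-rich cells, and 49.2% and 46.0% in other Ptprc-low cells. Col6a1 came next, with 11.9% and 11.4% of collagen UMIs in matrix-rich and 12.8% and 14.3% in other Ptprc-low cells.

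**Figure D1:**
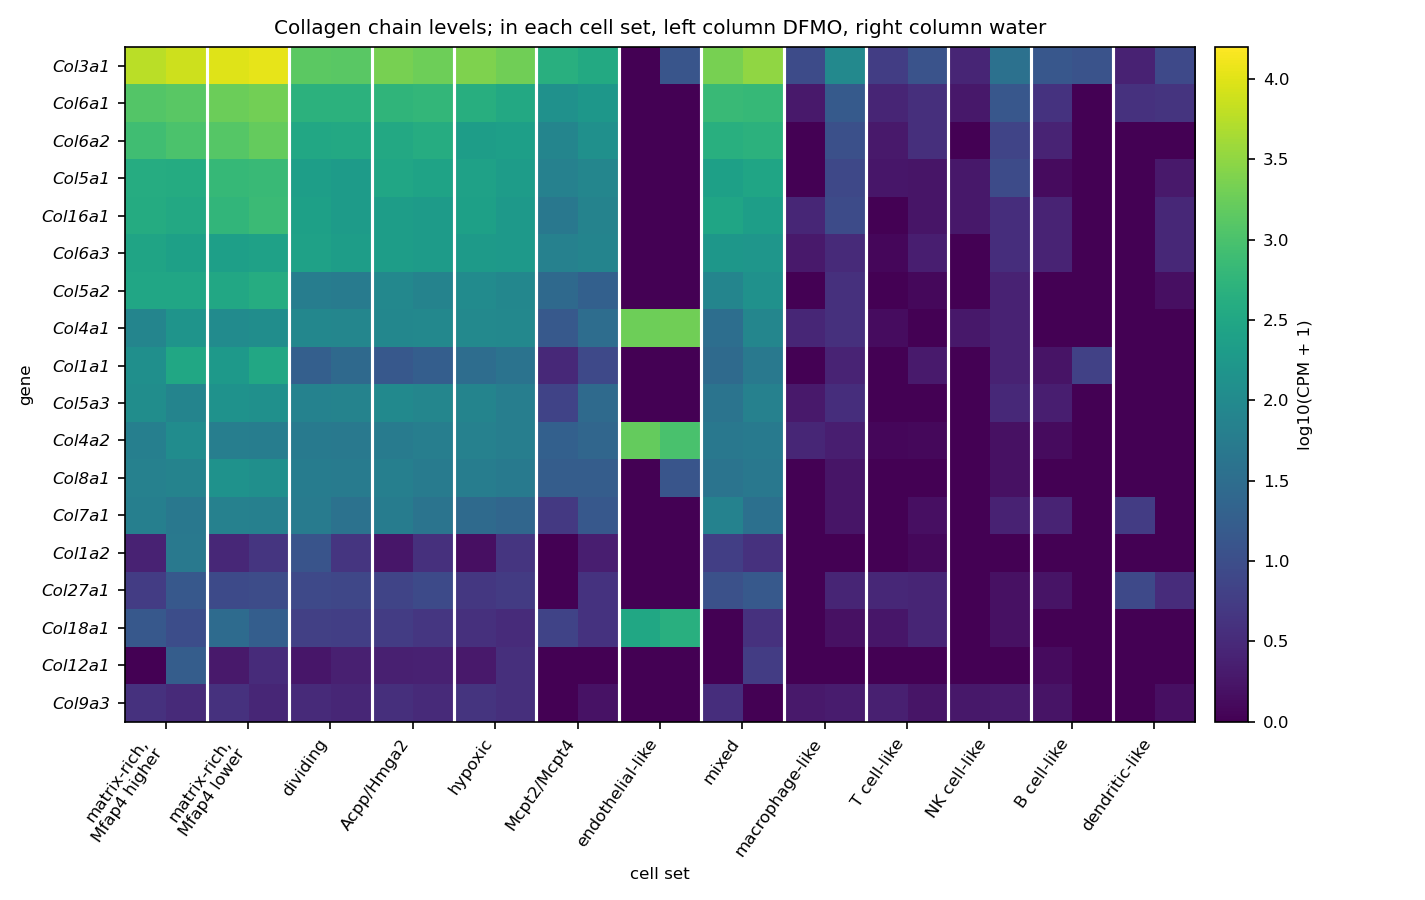
Level of the 18 collagen chains with at least 100 UMIs, as log10(CPM + 1), in 13 cell sets; in each set the left column is DFMO and the right column water. Col3a1 is the brightest row in all matrix-rich and other Ptprc-low sets (8243 and 8764 CPM in all matrix-rich cells), and Col4a1 and Col4a2 are the brightest rows in endothelial-like cells.

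Among the fibrillar chains, Col3a1 stood at 8243 CPM in DFMO (8107 to 8381) against 8764 CPM in water (8707 to 8822) in matrix-rich cells. In other Ptprc-low cells Col3a1 stood at 1849 CPM (1823 to 1876) in DFMO against 1566 CPM (1552 to 1579) in water. The lower library of the matrix-rich cells was thus the higher one in the other Ptprc-low cells. Col3a1 was detected in 107 of 108 DFMO and 871 of 872 water matrix-rich cells, so nearly every such cell carried it. Col5a1, whose type V chains help to start fibrils, stood at 559 and 506 CPM in matrix-rich and 252 and 223 CPM in other Ptprc-low cells of DFMO and water. Its partner Col5a2 stood at 324 and 336 CPM in matrix-rich and 79.5 and 66.6 CPM in other Ptprc-low cells. The ratio of Col5a1 to Col5a2 UMIs was 1.72 in DFMO and 1.51 in water in matrix-rich cells, and 3.17 and 3.35 in other Ptprc-low cells. The balance of this pair of chains thus differed more between cell sets than between libraries.

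Col1a1, the major chain of type I collagen, was far below Col3a1. It stood at 158 CPM in DFMO (140 to 178) against 322 CPM in water (311 to 333) in matrix-rich cells, and at 18.0 and 24.9 CPM in other Ptprc-low cells. In matrix-rich cells Col3a1 outnumbered Col1a1 by 52.1 to 1 in DFMO and by 27.2 to 1 in water. Col1a1 was carried by a minority of matrix-rich cells: 33 of 108 in DFMO (30.6%, exact binomial interval 22.1 to 40.2%) and 348 of 872 in water (39.9%, 36.6 to 43.2%), at median depths of 16231 and 11398 UMIs. In immune cells the share with Col1a1 was 0.0539% in DFMO and 0.418% in water, at medians of 1998 and 3656 UMIs. After thinning every cell to 1000 UMIs, with 0 DFMO and 4 water cells too shallow, the shares of matrix-rich cells with Col1a1 were 11.1% and 18.4%. The 5 matrix-rich cells with most Col1a1 held 51.3% of its UMIs in DFMO and 13.6% in water. These are 5 of 33 cells with Col1a1 in DFMO and 5 of 348 in water, so the shares cannot be compared directly. All 33 DFMO and all 348 water matrix-rich cells with Col1a1 also had Col3a1, which nearly every matrix-rich cell carried.

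Col1a2, whose product joins those of Col1a1 in type I collagen, had few UMIs. In matrix-rich cells it had 3 UMIs in 2 of 108 DFMO cells and 317 UMIs in 26 of 872 water cells. A pair of water cells, both in the Mfap4-higher set, held 158 and 104 UMIs, which is 55.3% of the 474 Col1a2 UMIs of all kept cells. The same cells had 156 and 99 UMIs of Col1a1, 17 and 13 of Col12a1 and 18 and 9 of Col14a1, so in them the type I chains were about equal in number. All 872 water matrix-rich cells held 18 Y-linked UMIs. The pair held 2 and 1 of these, at depths of 18843 and 11056 UMIs. Without these cells, left out after seeing the data, Col1a2 stood at 1.76 CPM in DFMO (0.364 to 5.16) against 5.44 CPM in water (4.1 to 7.09).

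**Figure D2:**
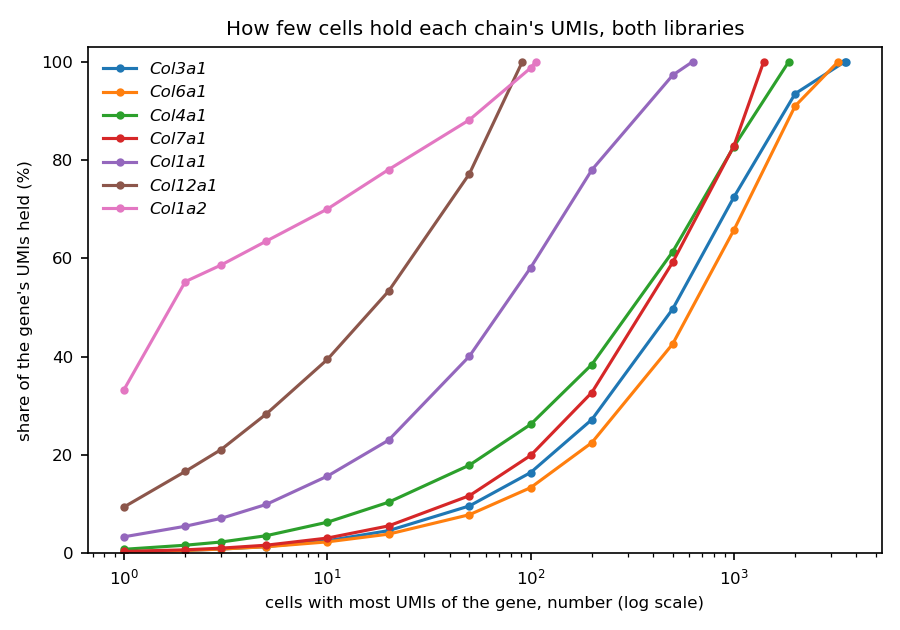
Cumulative share of the UMIs of 7 collagen chains, both libraries together, in percent against the number of cells with most UMIs of that chain (log axis). The 2 cells with most Col1a2 hold 55.3% of its UMIs, whereas the 100 cells with most Col3a1 hold 16.4% of its UMIs.

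Of the type VI chains, Col6a1 and Col6a2 ranked just below Col3a1, and Col6a3 ranked lower. Col6a1 stood at 1575 CPM in DFMO (1516 to 1635) against 1606 CPM in water (1581 to 1631) in matrix-rich cells, and at 482 and 486 CPM in other Ptprc-low cells. Col6a2 stood at 1084 and 1239 CPM in matrix-rich and 298 and 328 CPM in other Ptprc-low cells. These genes lie on the same strand of chromosome 10, 85161 bases apart. All 105 DFMO matrix-rich cells with Col6a2 also had Col6a1, as did 854 of 858 water cells. Col6a1 was detected in 106 of 108 DFMO and 866 of 872 water matrix-rich cells. Their overlap therefore does not set the pair apart. Col6a3, the remaining abundant type VI chain, stood at 252 and 248 CPM in matrix-rich and 217 and 197 CPM in other Ptprc-low cells, a far smaller gap between the cell sets. Col6a1 outnumbered Col6a3 in matrix-rich cells by 6.26 to 1 in DFMO and by 6.48 to 1 in water, and in other Ptprc-low cells by 2.22 to 1 and 2.47 to 1. The ratio of Col6a1 to Col6a2 kept to a narrower range, 1.45 and 1.30 in matrix-rich and 1.62 and 1.48 in other Ptprc-low cells. In hypoxic cells it was 2.02 in DFMO (1.80 to 2.26) and 1.48 in water (1.39 to 1.58).

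The basement membrane chains had a different leader. Col4a1 and Col4a2, which are transcribed away from each other on chromosome 8 and whose annotated ends overlap, were highest in the 5 DFMO and 16 water endothelial-like cells. Col4a1 stood there at 1840 CPM in DFMO (1432 to 2329; 69 UMIs) against 1979 CPM in water (1689 to 2304; 166 UMIs). Col4a2 stood there at 1627 CPM in DFMO (1245 to 2090) against 978 CPM in water (777 to 1213). The intervals of the libraries overlapped for Col4a1 and did not for Col4a2. In matrix-rich cells Col4a1 stood at 94.7 and 134 CPM and in other Ptprc-low cells at 84.5 and 84.8 CPM in DFMO and water. Col18a1, the source of endostatin, stood at 320 and 453 CPM in endothelial-like cells, and at 22.3 and 11.7 CPM in matrix-rich cells. Col15a1, its relative, stood at 240 and 238 CPM in endothelial-like cells, and all 13 UMIs of the transmembrane chain Col13a1 lay there. Col3a1 had 0 UMIs in the DFMO endothelial-like cells and 1 in the water ones.

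Across the 19 clusters with at least 50 cells, 15 of the 18 chains followed a common pattern. This limit left out the endothelial-like cluster of 21 cells, where Col4a1 and Col4a2 were highest and Col3a1 was nearly absent. Col1a1, Col3a1, Col4a1 and 12 others joined 1 group at a distance of 0.15, where distance is 1 minus Pearson's correlation of log2(CPM + 1). Col27a1, a fibrillar chain best known from cartilage, Col18a1 and the cartilage chain Col9a3 stood apart. The correlation was 0.99 between Col4a1 and Col4a2, 0.99 between Col3a1 and Col6a1 and 0.94 between Col1a1 and Col1a2. The clusters share 2 libraries, differ in depth and include immune clusters with little collagen, so these values only describe likeness. Among 9920 other genes with at least 500 UMIs, those most like Col1a1 over the 19 clusters were Postn (0.96), which encodes the matrix protein periostin, Antxr1, Ssc5d, Slc4a3 and Mmp2. Those most like Col4a1 were Kif21a (0.99), Tbx3, Gpx8, Pcdh19 and Fstl1.

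Set against the other Ptprc-low cells of the same library, the matrix-rich cells were higher in nearly every chain, with Col6a3 and the type IV chains among the lowest ratios. The clusters were made without the collagen genes, but from the same cells, so these ratios are a description. The log2 ratio of the collagen sums was 1.81 (1.79 to 1.83) in DFMO and 2.05 (2.04 to 2.06) in water. Of members with at least 100 UMIs, 7 of 13 were at least 2-fold higher in DFMO, where 3.93% of all such genes were. In water 10 of 17 were, where 8.11% of all such genes were, and 9 of 17 without the pair of Col1a2-rich cells. Members with at least 30 UMIs had a median of 0.94 in DFMO and 1.46 in water, beside 0.06 and 0.15 over all genes. Col1a1 stood at 3.14 (2.86 to 3.42) in DFMO and 3.69 (3.58 to 3.81) in water, the highest ratio among the members called in both libraries. Col3a1 followed at 2.16 and 2.48, Col5a2 at 2.03 and 2.33, Col6a2 at 1.86 and 1.92, Col6a1 at 1.71 and 1.72, Col16a1 at 1.18 and 1.34 and Col5a1 at 1.15 and 1.18. Col6a3 stood at 0.21 (0.06 to 0.36) in DFMO and 0.33 (0.27 to 0.40) in water. Col4a1 stood at 0.16 (-0.09 to 0.41) in DFMO and 0.66 (0.57 to 0.76) in water, so it was higher beyond counting error in water and not in DFMO.

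**Figure D3:**
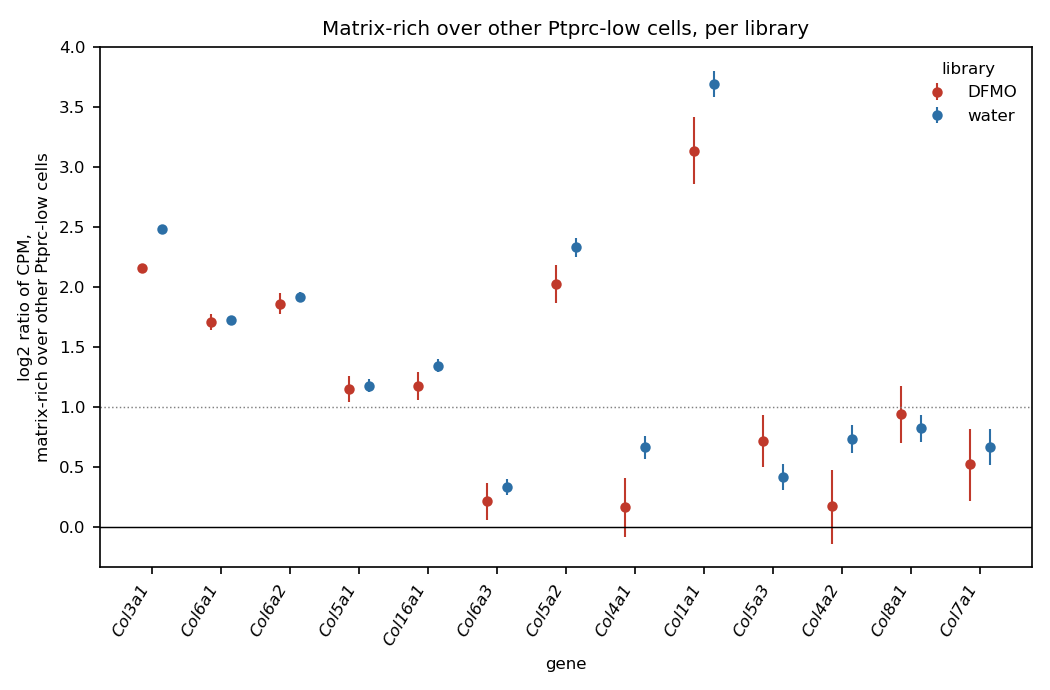
log2 ratio of CPM in matrix-rich cells over other Ptprc-low cells for the 13 chains with at least 100 UMIs in both libraries, with DFMO left of water; bars are exact conditional binomial 95% intervals of counting error and the dotted line marks 2-fold. Col1a1 lies highest at 3.14 in DFMO and 3.69 in water, and Col6a3 lies near 0 at 0.21 and 0.33.

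Among the other genes of collagen assembly, those of fibril partners and of propeptide cleavage were mostly higher in matrix-rich cells, and those of transport were not past 2-fold. Unlike the collagen genes, these genes were not left out when the clusters were made. Postn and Bgn, which are listed fibril partners, were among the leading genes of the matrix-rich cluster. The counts that follow therefore only describe that cluster. Over all genes, 3.93% were 2-fold higher in DFMO and 8.11% in water. Among the genes of fibril partners, 5 of 6 measured genes were at least 2-fold higher in DFMO and 6 of 7 in water. They included decorin (Dcn), which coats fibrils, at 5456 and 5437 CPM in matrix-rich and 1308 and 1273 CPM in other Ptprc-low cells of DFMO and water. Of the genes for propeptide cleavage and crosslinking, 3 of 5 were 2-fold higher in DFMO and 4 of 6 in water. These were the procollagen proteinase gene Bmp1, the gene of its enhancer Pcolce and the lysyl oxidase gene Loxl1 in both libraries, with Loxl3 in water. Of the chain modification and folding genes, 0 of 16 were past 2-fold in DFMO and 3 of 17 in water, and P4ha1, P4ha2 and Plod2, which hydroxylate the chains, were lower in matrix-rich cells in both libraries, at -0.54 in DFMO and -0.41 in water for Plod2. Of the transport genes 0 of 7 were past 2-fold in both libraries, and of the receptor genes 1 of 5 was 2-fold higher in both. Of the collagenases and gelatinases 2 of 3 were 2-fold higher in DFMO and 3 of 3 in water, and of the transcription list 1 of 5 and 3 of 6. Serpinh1, the gene of the collagen chaperone, stood at 1517 and 1467 CPM in matrix-rich and 1308 and 1259 CPM in other Ptprc-low cells.

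Within the matrix-rich cells, the Mfap4-higher cells held less collagen than the Mfap4-lower cells. Collagen summed to 9802 CPM in DFMO against 11951 CPM in water in Mfap4-higher cells, and to 15394 and 17496 CPM in Mfap4-lower cells, a log2 ratio of -0.65 in DFMO and -0.55 in water. Of members with at least 100 UMIs in DFMO, 1 of 13 was 2-fold lower in Mfap4-higher cells, Col8a1 at -1.02, where 1.1% of all such genes were. In water 1 of 17 was 2-fold lower, Col16a1 at -1.07, where 1.77% of all such genes were. In water 2 of 17 were 2-fold higher, Col1a2 and Col12a1, where 0.792% of all such genes were. Both reached 100 UMIs only through the Mfap4-higher cells, with 304 and 13 UMIs of Col1a2 and 101 and 9 of Col12a1. Without the pair of Col1a2-rich cells neither had 100 UMIs. Without the pair Col12a1 was still higher in Mfap4-higher cells, at 2.27 (1.26 to 3.46) with 71 and 9 UMIs, and Col1a2 stood at 0.98 (0.06 to 2.00) with 42 and 13 UMIs. Col3a1 stood at 5870 and 7469 CPM in Mfap4-higher cells of DFMO and water, and at 9777 and 10893 CPM in Mfap4-lower cells.

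Set against water, the DFMO matrix-rich cells had nearly the same collagen sum and less Col1a1. The log2 ratio of the sums, DFMO over water, was -0.09 (-0.11 to -0.07). The median over 18 members was -0.07, with 7 higher and 11 lower, and the median over all genes was 0.00059. Of 17 members with at least 100 UMIs, 3 were past 2-fold, all lower in DFMO, where 1.8% of all such genes were past 2-fold and 1.3% were lower. These were Col1a1 at -1.03 (-1.21 to -0.85), Col1a2 at -4.15 (-6.43 to -2.59) and the fibril-associated chain Col12a1 at -4.21 (-9.52 to -1.70). Col12a1 had 1 UMI in DFMO and 110 in water, and Col1a2 had 3 and 317, so both reached 100 UMIs only through water. The water UMIs of Col12a1 lay in 43 of 872 cells. Col1a1 reached 100 UMIs in each library. Without the pair of Col1a2-rich water cells 0 of 15 members with at least 100 UMIs were past 2-fold, since Col1a1 moved a little short of it, to -0.91 (-1.10 to -0.73), and Col1a2 and Col12a1 fell below 100 UMIs. The ratio of Col12a1 was then -3.75 (-9.07 to -1.23), with 1 UMI in DFMO and 80 in water, a small change in a ratio that rests on few cells. That of Col1a2 was -1.63 (-3.95 to -0.003), with 3 UMIs in DFMO and 55 in water. Markers of red blood cells summed to 1.2 CPM in DFMO against 227.5 CPM in water in the same cells, and their part in these ratios was not tested. Among chains short of 2-fold, Col6a2 (-0.19), Col4a1 (-0.50) and Col4a2 (-0.52) had intervals below 0. Col5a1 (0.14), Col5a3 (0.43), Col8a1 (0.26), Col7a1 (0.32) and Col18a1 (0.93) had intervals above 0.

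Of the 2 sets of matrix-rich cells, the Mfap4-higher cells had the lower ratio of sums, -0.29 (-0.32 to -0.25), with a median of -0.14 over 16 members. There 3 of 15 members were past 2-fold, all lower in DFMO, beside 2.81% of all such genes past 2-fold and 1.93% lower. They were Col1a1, with 83 UMIs in DFMO and 1992 in water, Col1a2, with 1 and 304, and Col12a1. All 3 reached the number of UMIs needed for a call only through water. Their count is therefore no support for a direction. Col1a1 stood at 124 CPM in DFMO against 316 CPM in water, a log2 ratio of -1.35 (-1.68 to -1.03). Col12a1 had 0 UMIs in DFMO and 101 in water. With the DFMO library set to a floor of 3 counts it was 3.57-fold lower in DFMO. This value leaves out the counting error of water and is not a lower bound. Without the Col1a2-rich cells Col12a1 had 0 and 71 UMIs, and the upper end of its log2 interval was -0.998. Without the Col1a2-rich cells 1 of 13 members was past 2-fold, Col1a1 at -1.16, with 83 UMIs in DFMO and 1737 in water. Taken instead as the 2 DFMO and 102 water matrix-rich cells with at least 1 Mfap4 UMI, the set had a ratio of sums of 0.47, the opposite direction. Markers of dividing cells summed to 221.6 CPM in DFMO against 91.1 CPM in water in the Mfap4-higher set, and their part in its ratios was not tested. There Col4a1 stood at 80.9 CPM in DFMO against 146 CPM in water, a ratio of -0.85 (-1.28 to -0.46). In Mfap4-lower cells the ratio of sums was -0.18 (-0.21 to -0.16), with 0 of 13 members past 2-fold, beside 0.794% of all such genes. Col1a1 stood there at 180 CPM in DFMO against 331 CPM in water, a ratio of -0.88 (-1.11 to -0.66). The difference between the ratios of the 2 sets was not tested.

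**Figure D4:**
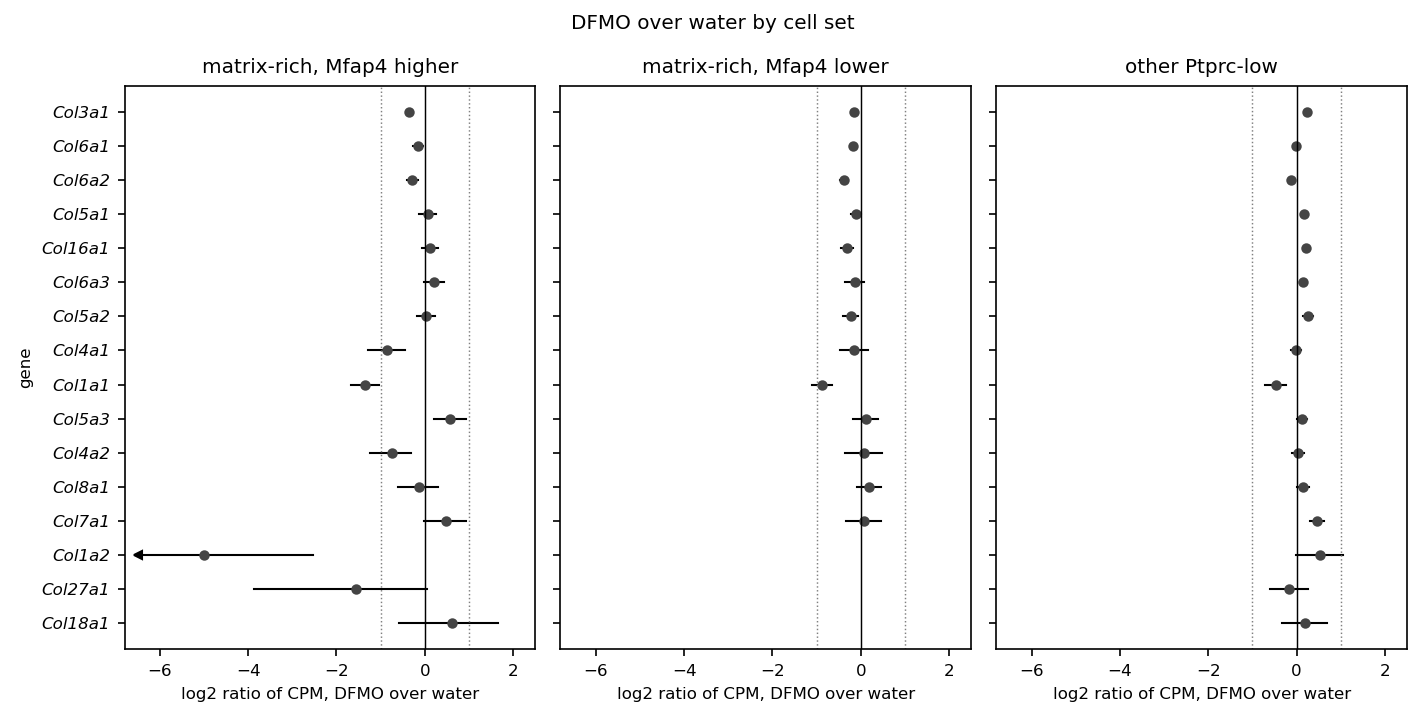
log2 ratio of CPM in DFMO over water for each chain in 3 cell sets (members with at least 100 UMIs, or 30 in the Mfap4-higher set), with exact conditional binomial 95% intervals of counting error; dotted lines mark 2-fold and the arrow marks an interval that runs off the axis. Col1a1 lies left of 0 in all 3 panels, at -1.35, -0.88 and -0.47, and Col3a1 lies right of 0, at 0.24, in other Ptprc-low cells.

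The matrix-rich cluster holds 6 subclusters, and their mix differed between the libraries. Subcluster 0 held 46 of the 108 DFMO cells and 265 of the 872 water cells, and subcluster 1 held 19 and 274. Col6a1 and Col6a2 were lower in DFMO in 6 of 6 subclusters, with intervals below 0 in 4 for Col6a1 and in 5 for Col6a2. Col1a1 was lower in 5 of 6 and higher in subcluster 3, at 273 CPM in DFMO against 204 CPM in water, a ratio of 0.42 (0.09 to 0.74). In subcluster 2 Col1a1 had 1 UMI in 12 DFMO cells and 734 UMIs in 164 water cells, and in subcluster 4 it had 0 UMIs in 6 DFMO cells and 130 UMIs in 40 water cells. Of the 110 Col12a1 UMIs of water matrix-rich cells, 85 lay in subcluster 2, where DFMO had 0. Col3a1 was lower in 4 of 6, with ratios between -1.25 in subcluster 4 and 0.32 in subcluster 5. With the water subclusters weighted by the DFMO mix, the ratio in all matrix-rich cells was -1.05 for Col1a1, -0.33 for Col6a2 and -0.20 for Col3a1. Each DFMO subcluster other than subcluster 0 rests on 6 to 19 cells.

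**Figure D5:**
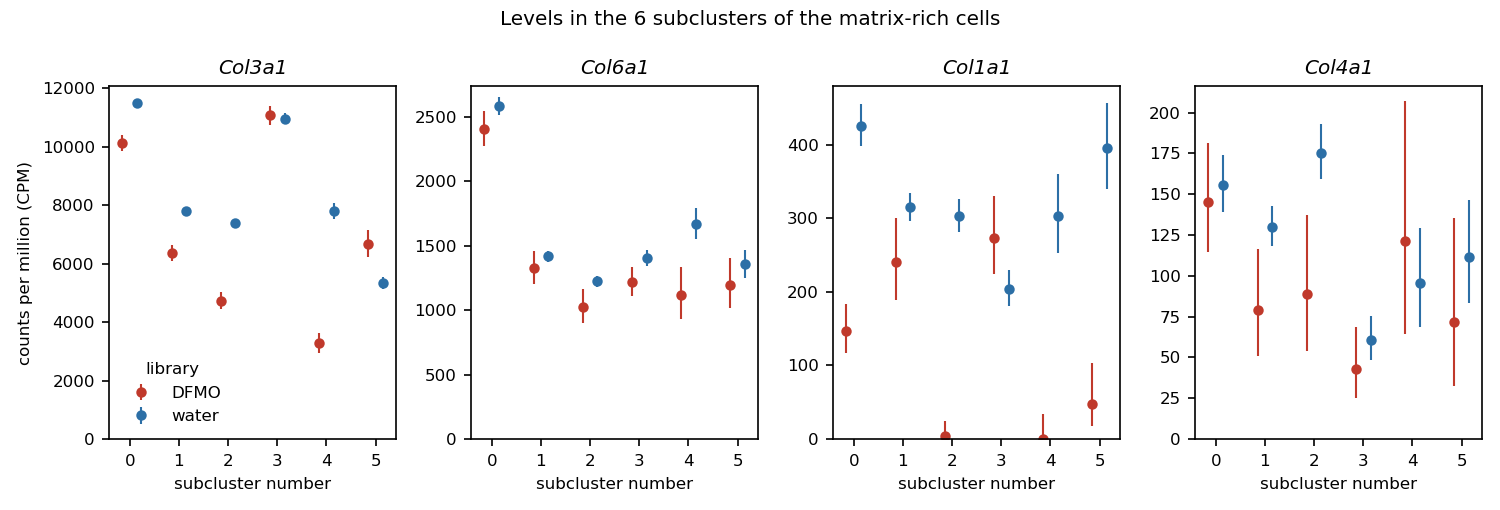
Level of Col3a1, Col6a1, Col1a1 and Col4a1 in CPM in each of the 6 matrix-rich subclusters, DFMO left of water, with exact Poisson 95% intervals of counting error. The DFMO points lie below the water points in 6 of 6 subclusters for Col6a1 and in 5 of 6 for Col1a1.

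In the other Ptprc-low cells the collagen sum was slightly higher in DFMO and no member was past 2-fold. The ratio of sums was 0.15 (0.13 to 0.16), the median over 18 members was 0.14 with 12 higher and 6 lower, and the median over all genes was 0.05. Of 16 members with at least 100 UMIs, 0 were past 2-fold, beside 0.864% of all such genes. Col3a1 stood at 0.24 (0.22 to 0.26), Col5a2 at 0.26 (0.14 to 0.37) and Col16a1, which sits on fibril surfaces, at 0.21 (0.14 to 0.28). Col7a1, the chain of anchoring fibrils, stood at 47.2 CPM in DFMO against 34.0 CPM in water, a ratio of 0.47 (0.31 to 0.63). Col1a1 stood at -0.47 (-0.71 to -0.23) and Col6a2 at -0.14 (-0.20 to -0.08). The direction of the sum depended on the weighting: its ratio was -0.02 as a mean over cells and -0.01 with every cell thinned to 1000 UMIs. By cluster the ratio of sums was 0.27 in hypoxic, 0.08 in dividing and 0.10 in Acpp-led cells, and -0.15 in the cluster led by Mcpt2 and Mcpt4.

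Dividing cells had less Col3a1, Col5a2 and Col1a1 than hypoxic cells, and more of the type VI chains, in both libraries. Col3a1 stood at 1373 CPM in DFMO against 1311 CPM in water in dividing cells, and at 2451 and 1944 CPM in hypoxic cells. Col6a2 stood at 332 and 339 CPM in dividing cells, and at 213 and 231 CPM in hypoxic cells. Col7a1 had a log2 ratio of 1.0 (0.58 to 1.45) in DFMO and 0.65 (0.38 to 0.92) in water. It was the 1 of 13 members past 2-fold higher in dividing cells of DFMO, beside 9.96% of all such genes, and 0 of 14 were in water, beside 9.36%.

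Immune cells held little collagen, and most of what the water library had lay in few cells. They held 244 collagen UMIs in 3710 DFMO cells and 1219 in 3108 water cells, a ratio of sums of -2.00 (-2.21 to -1.81). Of members with at least 100 UMIs, 2 of 2 were 2-fold lower in DFMO, beside 7.23% of all such genes. These were Col3a1, at 6.85 and 47.2 CPM in DFMO and water, and Col6a1, at 2.05 and 9.01 CPM. Both reached 100 UMIs only through the water library, with 77 and 660 UMIs of Col3a1 and 23 and 126 of Col6a1. Their count is therefore no support for a direction. Cells with at least 10 collagen UMIs numbered 2 in DFMO and 14 in water, and held 27.5% and 70.1% of the collagen UMIs. Without them, left out after seeing the data, collagen summed to 15.8 CPM in DFMO against 26.1 CPM in water, a ratio of -0.74. Macrophage-like cells held 25 collagen UMIs in DFMO and 881 in water, and without them the ratio was -0.91. A UMI of Col3a1 was seen in 1.27% of DFMO and 3.83% of water immune cells. In B cell-like cells, which should lack it, the shares with Col3a1 were 1.12% in DFMO and 3.17% in water, at medians of 1773 and 1355 UMIs. These shares rest on 17 of 1520 DFMO and 2 of 63 water B cell-like cells, and the water share had an exact binomial interval of 0.387 to 11.0%. By level Col3a1 stood at 12.7 CPM in DFMO (40 UMIs) against 10.9 CPM in water (2 UMIs) in B cell-like cells. In DFMO 16 of these UMIs lay in the larger B cell-like cluster, with 1492 DFMO cells, at 5.64 CPM. A single DFMO B cell-like cell held 52 of the 97 collagen UMIs of that set. In immune cells as a whole Col3a1 in water, at 47.2 CPM, was above these levels. In DFMO, at 6.85 CPM, it lay between 5.64 and 12.7 CPM. Dcn stood at 4.1 CPM in DFMO against 27.2 CPM in water in immune cells. The part of free RNA or of adhering matrix-rich cells in these values was not tested.

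The other genes of collagen assembly seldom passed 2-fold between the libraries. In matrix-rich cells 2 of 51 genes with at least 100 UMIs did, both lower in DFMO, beside 1.8% of all such genes past 2-fold and 1.3% lower. The proteoglycan gene Bgn stood at 41.7 CPM in DFMO against 157 CPM in water, a ratio of -1.92 (-2.28 to -1.57), and the gelatinase gene Mmp2 at 76.4 and 177 CPM, a ratio of -1.21 (-1.48 to -0.95). Fibronectin (Fn1), another fibril partner, was the higher in DFMO, at 4578 CPM against 3197 CPM in water. The chain modification and folding list had a median of -0.08, with 7 higher and 10 lower. In Mfap4-higher cells 3 of 48 list genes were 2-fold lower and 1 was 2-fold higher, beside 1.93% and 0.885% of all such genes. Lower were Plod1, a lysyl hydroxylase gene, at -1.25, Bgn at -1.53 and Mmp2 at -1.37, and lumican (Lum) was higher at 1.21. In other Ptprc-low cells 0 of 50 genes of the lists were past 2-fold, beside 0.864% of all such genes. In immune cells 14 of 36 were 2-fold lower in DFMO, beside 7.23% of all such genes. They included Dcn, Sparc and the matrix metalloproteinase genes Mmp8, Mmp12, Mmp13 and Mmp14. Tgfbr2 alone was 2-fold higher, at 1.12, beside 8.2% of all such genes. The make-up of the immune cells differed, with 190 of 3710 DFMO and 1234 of 3108 water cells macrophage-like. Within macrophage-like cells 3 of 28 list genes were 2-fold lower, beside 1.05% of all such genes. Of the collagenases and gelatinases 0 of 4 were past 2-fold there. The part of the cell mix was not tested.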

How the data were processed

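UMI counts per gene and cell were deposited by the authors as 1 matrix for both libraries, with a table that gives each cell's group as DFMO or Control, which was taken as the water group. Per the submitters' processing notes, Cell Ranger 3.02, Scanpy 1.4.4 and mm10 were used, with no role or filter given in the sources used here. The matrix holds no mitochondrial or ribosomal genes.

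The collagen genes and gene lists were chosen with earlier results of these data known. Cells with fewer than 200 genes (1 cell) and doublets marked by Scrublet at a rate of 0.05 (51 DFMO cells, 1.14%, and 97 water cells, 1.55%) were removed. Clustering used scanpy 1.11.5 and leidenalg 0.10.2 with 2000 variable genes, collagens left out, 30 components, 15 neighbours and resolution 1.0, and 0.5 for the matrix-rich subclusters. Clusters were named from markers without collagens, at least 3 of them 2-fold above the other cells, and a difference from the study may come from these rebuilt names. The matrix-rich cluster was split by subclusters with Mfap4 of at least 50 CPM over both libraries.

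UMIs were summed per cell set and library and given as CPM with exact Poisson intervals, shares of cells with exact binomial (Clopper-Pearson) intervals, and ratios as log2 with exact conditional binomial intervals. A gene was called past 2-fold with at least 100 UMIs in the compared cells over both groups, so it could reach that number through 1 group alone. Named were members with at least 100 UMIs in a set (30 in the Mfap4-higher set), list genes past 2-fold and the 5 genes most like Col1a1 and Col4a1, and other list genes were named as examples after their values were seen. Scripts were tested on simulated data, with Python 3.11.15, numpy 2.4.6, scipy 1.17.1, pandas 2.3.3 and edgeR 4.0.16 (R 4.3.3, library sizes only). The libraries held 23383042 UMIs in DFMO and 58368594 UMIs in water in kept cells.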

Additional observations from a re-analysis of the deposited data

Results flagged for a closer look

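Col1a2, a chain of type I collagen, had ratios of 2-fold or more in opposite directions between DFMO and water in different cell sets. Only the matrix-rich set had the 100 UMIs needed for a call, and the difference was not tested. Its log2 ratio of DFMO over water was 1.745 in dividing cells, with 41 UMIs in 9 of 202 DFMO cells and 47 UMIs in 25 of 744 water cells. The ratio was -4.148 in matrix-rich cells and -1.801 in the cluster led by Wfdc18, Lcn2 and Acpp, where DFMO had 3 UMIs and water had 30. In dividing cells of DFMO, 16 of the 41 UMIs lay in 1 cell, and in water the highest cell had 5. In matrix-rich cells 262 of the 317 water UMIs lay in 2 cells.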

How the results depend on the processing

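No paired analysis was possible because DFMO and water were 1 library each. The results recomputed were log2 ratios of DFMO over water for collagen sums, medians and single chains. With the sum in other Ptprc-low cells at 0.15, it was -0.0245 as a mean over cells (the median -0.0165) and -0.00807 with thinned cells, 0.0994 and 0.0445 at clustering resolutions 0.5 and 2.0, and 0.0862 with TMM library sizes. There Col5a1 was -0.0369 and Col5a3 -0.111 as means over cells, and Col5a3 -0.277 with thinned cells. In the 2 DFMO and 102 water matrix-rich cells with an Mfap4 UMI, the sum was 0.466, Col3a1 0.576, Col1a1 0.161, Col6a1 0.466, Col6a2 0.6105 and Col4a1 0.0213, all opposite to the Mfap4-higher set; the cause was not tested. Other settings of the Mfap4-higher sum (-0.29) gave -0.188 with doublets kept, -0.148 with at least 500 genes, -0.172 and -0.166 at resolutions 0.5 and 2.0, -0.107 with collagens among the variable genes, -0.407 as a mean over cells and -0.381 with thinned cells. For the Mfap4-lower sum (-0.18) they gave -0.135 with doublets kept, -0.242 with at least 500 genes, -0.217 and -0.339 at resolutions 0.5 and 2.0, and -0.218 as a mean over cells. The immune sum (-2.00) was -3.046 with doublets kept, -2.351 with at least 500 genes, -2.346 at both resolutions and with collagens among the variable genes, -1.70 as a mean over cells and -2.217 with thinned cells. The immune median (-2.34) was -1.143 over members with at least 10 UMIs.

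Settings added after seeing the data were these. Without Col3a1 the sums were -0.234 in Mfap4-lower, -0.189 in Mfap4-higher, 0.0598 in other Ptprc-low and -1.427 in immune cells. Without macrophage-like cells the immune sum was -0.906 and the median -1.247, and without immune cells of 10 or more collagen UMIs they were -0.739 and -0.5865. Leaving out the pair of Col1a2-rich cells left no member called in matrix-rich cells, with Col1a1 at -0.91 and Col12a1, under 100 UMIs, at -3.75. Of the values for sums and medians under all settings, 63 moved by less than their counting interval, 31 moved further and 4 were counted as reversed. For single chains these numbers were 275, 102 and 8. The reversed values do not include every change of sign. Col16a1 ranged from -0.70 to 0.55 in Mfap4-higher cells, and Col4a2 from -0.45 to 0.17 in Mfap4-lower cells. Depth limits members under 100 UMIs and the DFMO subclusters.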
